A study of Mus musculus with 6 samples.

Results

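H/ACA box small nucleolar RNAs (snoRNAs) and small Cajal body RNAs (scaRNAs) were examined in small RNA libraries of extracellular vesicles (EVs) from primary astrocytes and primary neural stem cells (NSCs). Members were all rows of the count table typed as H/ACA box or scaRNA, which gave 509 of 61949 rows, with 474 H/ACA box rows and 35 scaRNA rows. Rows with equal counts in all 6 libraries were treated as 1 row, which merged 234 rows and left 275 distinct rows, 246 H/ACA box and 29 scaRNA. The astrocytes came from the cortex and the NSCs, labelled neonatal, from the subventricular zone of CD1 mice, and both EV types had 3 libraries. No genotype, treatment or animal number distinguished the groups. The paper grew astrocytes from dorsal cortices of postnatal day 4 pups, shook off microglia and oligodendrocytes, and took EVs as the pellet of a high-speed spin. The medium and EV isolation of the NSC samples were not described. The labels do not say that replicates came from separate cultures, and each p-value reflects only how far these libraries spread, which may be technical variation.

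An H/ACA RNA folds into a pair of hairpins, each followed by a short single-stranded box, the H box (ANANNA, where N is any base) and the ACA box near the 3′ end. It pairs with a target RNA and places a uridine in the active site of dyskerin (Dkc1), which converts it to pseudouridine together with Nop10, Nhp2 and Gar1. Most H/ACA snoRNAs act on ribosomal RNA in the nucleolus. The scaRNAs act on spliceosomal RNAs in Cajal bodies, where Wrap53 binds the CAB box of H/ACA scaRNAs, and some scaRNAs have C/D or mixed structure. In mouse most of these RNAs are cut from introns of host genes, and a few are processed further into miRNA-sized RNAs. They are therefore known as nuclear RNAs, and their reads in EV libraries may be whole RNAs or fragments, which the count table does not separate.

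The total counts of the libraries ranged from 44620985 to 111851274, and a count of 3 corresponded to between 0.0213 and 0.0718 CPM (counts per 1e+06 counts, scaled by TMM over all non-hairpin rows). The TMM factors ran from 0.488 in astrocyte EV replicate 1 to 1.42 in NSC EV replicate 2. Markers of red blood cells (miR-451a and miR-144-3p, both of 2 higher) summed to between 1.52 and 3.16 CPM in astrocyte EVs and to between 0 and 0.0175 CPM in NSC EVs. Mesenchymal markers (2 of 4 higher) summed to between 16.7 and 460.3 CPM in astrocyte EVs and to between 2.82 and 10.4 CPM in NSC EVs, and astrocyte EV replicates 1 and 2 held most of this. Astrocyte markers (Gfap alone of 6 higher) summed to between 9.81 and 13.9 CPM in astrocyte EVs and to between 8.02 and 21.2 CPM in NSC EVs, and NSC markers (0 of 5 tested rows passed) to between 7.30 and 12.1 CPM and between 8.35 and 10.8 CPM, so both sums overlapped. No listed astrocyte or NSC marker was at 0 in any library. Neuronal markers ran from 1.96 to 2.67 CPM in astrocyte EVs and from 3.06 to 5.51 CPM in NSC EVs (1 of 2 lower), with miR-124-3p at 0 in all 3 astrocyte EV libraries. Microglial sums were 2.61 to 3.78 CPM in astrocyte EVs and 2.91 to 9.30 CPM in NSC EVs, and oligodendrocyte sums were 10.4 to 27.3 CPM and 12.5 to 22.8 CPM (0 of 3 and 0 of 2 tested rows passed). The part of these differences in the results below was not tested.

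The sequences of the rows on which the results turn are printed here from the GENCODE transcripts of the same assembly (mm10), with which 500 of the 509 rows shared both ends. For the 6 RNAs shown first, capitals mark the ANANNA match nearest the middle and the ACA nearest the 3′ end, as found by letters alone. The first is the most abundant H/ACA row (Snora16a, chr4:132309465-132309600, plus strand), the next 2 are near-identical copies of SNORA57 (Snora57, chr19:8888538-8888685, minus strand; Gm26132, chr8:110923116-110923263, plus strand). Snora20 (chr17:12922790-12922917, plus strand) and Gm25117, a SNORA48 copy (chr10:111481493-111481636, plus strand), had the lowest and the highest fitted log2 fold change among called rows with counts in both EV types. Snora73b (chr4:132352322-132352526, minus strand) is a copy of U17, which acts in ribosomal RNA processing.
Snora16a: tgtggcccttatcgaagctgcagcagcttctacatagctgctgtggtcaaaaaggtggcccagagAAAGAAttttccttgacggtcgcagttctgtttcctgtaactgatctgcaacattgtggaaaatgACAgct
Snora57: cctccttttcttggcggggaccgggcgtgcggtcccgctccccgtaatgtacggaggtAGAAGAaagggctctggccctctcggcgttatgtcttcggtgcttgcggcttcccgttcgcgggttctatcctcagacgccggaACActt
Gm26132: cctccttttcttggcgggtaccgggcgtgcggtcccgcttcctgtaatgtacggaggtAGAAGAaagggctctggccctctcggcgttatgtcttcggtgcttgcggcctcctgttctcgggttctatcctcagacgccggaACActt
Snora20: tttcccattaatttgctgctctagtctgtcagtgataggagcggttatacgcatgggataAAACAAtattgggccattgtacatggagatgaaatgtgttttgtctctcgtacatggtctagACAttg
Gm25117: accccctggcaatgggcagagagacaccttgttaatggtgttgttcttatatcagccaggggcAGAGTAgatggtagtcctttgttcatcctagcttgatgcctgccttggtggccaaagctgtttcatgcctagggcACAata
Snora73b: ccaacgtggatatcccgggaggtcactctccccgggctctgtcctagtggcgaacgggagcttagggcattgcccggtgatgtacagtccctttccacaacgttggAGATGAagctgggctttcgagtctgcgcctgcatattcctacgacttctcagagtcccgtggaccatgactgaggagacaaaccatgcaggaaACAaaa

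The next rows are shown because annotated mature miRNAs lie inside them, and capitals mark the ones with a mature sequence in RefSeq (the 5p arm first where there are 2). They are SCARNA15 at the Mir1839 locus (chr7:81529855-81529981, plus strand), SNORA58 at the Mir3068 locus (chr12:87437682-87437817, minus strand) and Scarna3a (chr1:159340283-159340422, plus strand). In SCARNA15 only miR-1839-5p is marked, and miR-1839-3p, which the count table also places in this row, is in lower case.
SCARNA15: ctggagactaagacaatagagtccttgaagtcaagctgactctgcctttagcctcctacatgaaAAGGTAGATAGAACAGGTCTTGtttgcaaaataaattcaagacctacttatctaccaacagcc
SNORA58: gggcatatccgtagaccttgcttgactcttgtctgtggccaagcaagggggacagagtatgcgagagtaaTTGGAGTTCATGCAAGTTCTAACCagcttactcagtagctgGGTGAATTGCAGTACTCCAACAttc
Scarna3a: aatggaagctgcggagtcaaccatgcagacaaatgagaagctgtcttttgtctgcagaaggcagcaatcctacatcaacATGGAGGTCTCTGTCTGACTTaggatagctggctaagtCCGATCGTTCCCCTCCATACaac

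On the RNA strand, an ACA ending 3 bases before the 3′ end was found in 133 of 244 distinct H/ACA rows with a sequence (54.5%), in 12 of 28 scaRNA rows (42.9%) and in 2.20% of 29409 long noncoding transcripts. Within the last 10 bases, where ACA can also fall by chance, the shares were 81.6%, 67.9% and 13.5%. The H box letters were not selective, since ANANNA occurred somewhere in 96.7% of H/ACA rows, in 100% of scaRNA rows and in 90.3% of the last 131 bases of long noncoding transcripts. The 4 letters TGAG, one form of the CAB box, occurred in 71.4% of scaRNA rows, 38.5% of H/ACA rows and 47.1% of those noncoding windows. These letters describe the rows and do not establish a working box.

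H/ACA box rows took a smaller share of the library in astrocyte EVs than in NSC EVs. Their counts per 1e+06 non-hairpin counts were 17.5, 18.7 and 27.4 in astrocyte EV replicates 1 to 3 and 53.7, 92.1 and 60.8 in NSC EV replicates 1 to 3. The groups did not overlap, with means of 21.2 ± 5.37 (SD, n = 3) and 68.9 ± 20.5 (SD, n = 3), a 3.25-fold difference (exact two-sided permutation test, p = 0.1, adjusted p = 0.1 over the 2 classes). A p of 0.1 is the smallest that 3 libraries against 3 allow. The H/ACA sums include 5 SNORA17 rows of near-equal counts (described below) as separate rows. Each of them held 277 or 278 of the 4074 H/ACA counts in NSC EV replicate 2. In astrocyte EV replicate 3 each held 215 or 216 of 3044. The highest share of each group (92.1 and 27.4) and the SDs may therefore partly count 1 signal repeatedly. A sum with these rows taken once was not run. The scaRNA shares were also lower in astrocyte EVs, with 7.17, 5.09 and 11.2 against 44.5, 19.8 and 19.4 in NSC EVs. Their means were 7.81 ± 3.08 and 27.9 ± 14.4 (SD, n = 3 each), a 3.57-fold difference (exact two-sided permutation test, p = 0.1, adjusted p = 0.1). NSC EV replicate 1 stood above the others, and without it the scaRNA ratio was 2.51. The scaRNA sums include Gm25820, Gm23370 and Gm22897 as separate rows, which were 93.0% to 94.6% identical and had parallel counts. They held 157, 145 and 124 of the 2127 scaRNA counts of NSC EV replicate 1. Its high share may therefore also partly count 1 signal repeatedly. A scaRNA sum with them taken once was not run. For single libraries the 95% Wilson interval of the share was narrow, for example 4.60 to 5.64 around the lowest scaRNA value, and covers counting error only. The shares were taken over unscaled totals. The TMM factors were 0.488, 0.869 and 1.27 in astrocyte EV replicates 1 to 3. In NSC EV replicates 1 to 3 they were 1.20, 1.42 and 1.09. Shares scaled by these factors were not run, so the fold differences and the lack of overlap hold for unscaled totals only.

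**Figure D1:**
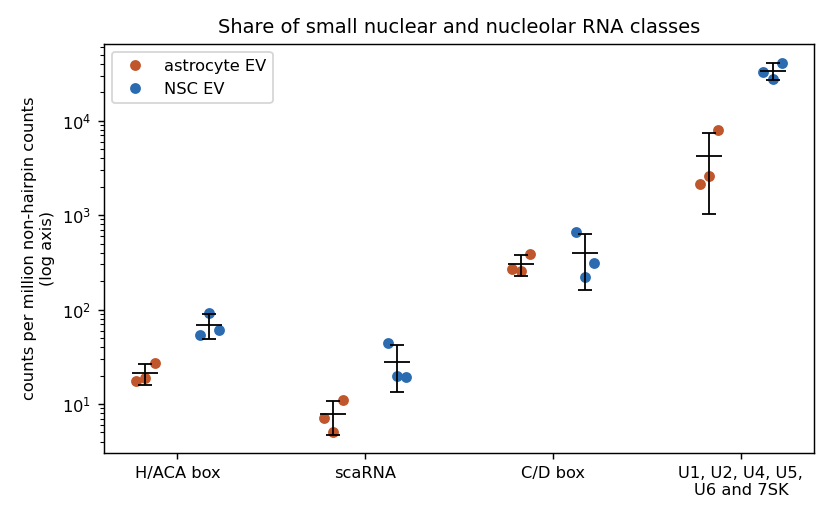
Counts per 1e+06 non-hairpin counts (log axis) of 4 RNA classes in each library, with astrocyte EV and NSC EV libraries as points and bars for the mean ± SD (n = 3). The H/ACA box and scaRNA points of the EV types do not overlap (17.5 to 27.4 against 53.7 to 92.1, and 5.09 to 11.2 against 19.4 to 44.5), whereas the C/D box points do.

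The direction was shared by other nuclear RNAs only in part. C/D box snoRNAs, the class that guides 2′-O-methylation, averaged 304 ± 75.0 counts per 1e+06 in astrocyte EVs and 395 ± 232 in NSC EVs (SD, n = 3 each), and the libraries overlapped (exact two-sided permutation test, p = 0.7). Rows of U1, U2, U4, U5, U6 and 7SK, which include the targets of scaRNAs, averaged 4211 ± 3187 and 33755 ± 6937 counts per 1e+06 (SD, n = 3 each), 8.02-fold apart with no overlap (exact two-sided permutation test, p = 0.1). These classes share the denominator, and whether fewer of these RNAs were loaded or more of other RNAs were present cannot be told apart. Leaving out counts that fell on mature miRNAs inside the rows gave an H/ACA ratio of 3.31 and a scaRNA ratio of 3.05.

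Counts were concentrated in few rows. The 18 rows of largest mean share held 38.4% to 64.0% of the counts of both classes, and 111 distinct rows had fewer than 10 counts over the 6 libraries. Counts reached all 6 libraries in 61 distinct rows. Of the 275, 74 (59 H/ACA and 15 scaRNA) passed edgeR's low-count filter, and the 201 that did not held 10.8% to 24.0% of the counts. Passing the filter was uneven, since 38 of the 74 passed it in all NSC EV but not all astrocyte EV libraries, 6 the other way and 12 in all 6.

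edgeR's quasi-likelihood test (Benjamini-Hochberg adjustment over all 41308 tested rows, threshold 0.05) called 1 member higher in astrocyte EVs and 11 lower (9 H/ACA and 2 scaRNA), 16.2% of the 74 where 9.78% of all tested rows were called. Of all tested rows 5.54% were higher and 4.24% lower, against 1.35% and 14.9% of the 74 members, and outside RefSeq gene rows the background was 7.08% and 7.77%. The lower calls include both SNORA57 copies, and the 74 include SNORA17 rows of near-equal counts. Member percentages may therefore count 1 signal repeatedly. At an unadjusted p under 0.05 there were 30 members, and DESeq2 called 3 higher and 20 lower. The groups did not overlap in 4 members that were above in astrocyte EVs and 23 that were below, where 17.2% and 16.7% of all tested rows did so. The median log2 fold change (astrocyte EV minus NSC EV throughout) was -1.14 over the tested members and -0.04 over all tested rows. The member median fell among SNORA17 rows of near-equal counts (described below), whose direction turned without NSC EV replicate 2. Without that library the member median was -1.08 over 100 tested members. Putting rows at 0 in astrocyte EVs at their bound could not move the median, since they stayed below it. Among the 12 members past the filter in all 6 libraries, 10 had negative and 2 positive values, and 1 was called, lower. All other member calls were rows under the filter's cut in at least 1 library of the EV type in which they were lower. The adjusted p-values of those rows and the member percentages above are not free of that selection. C/D box rows had 23 higher and 34 lower calls among 152, with a median of -0.26. The calls were lost when any of 3 libraries was left out. Without astrocyte EV replicate 1, astrocyte EV replicate 2 or NSC EV replicate 3 edgeR called 0 members in either direction (38, 30 and 27 at an unadjusted p under 0.05, smallest adjusted p = 0.0541, 0.0607 and 0.0525). Over all tested rows these fits called 0 of 42189, 0 of 42002, and 4 higher and 14 lower of 43585. The loss was thus not particular to the members. Without astrocyte EV replicate 3 edgeR called 4 members higher and 9 lower, where 2786 and 1223 of all 41650 tested rows were called. Without NSC EV replicate 2 it called 1 member higher and 7 lower, where 940 and 1203 of all 43225 tested rows were called.

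**Figure D2:**
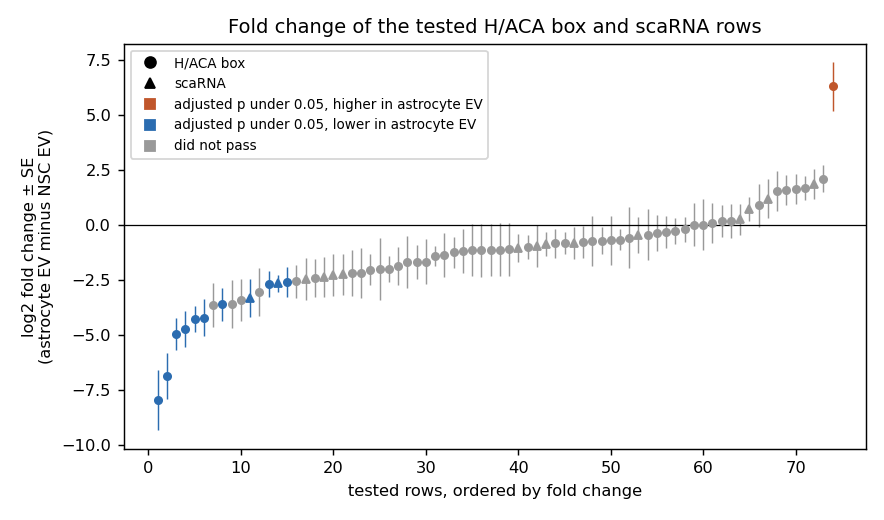
Log2 fold change ± SE (astrocyte EV minus NSC EV) of the 74 tested rows in rank order, with circles for H/ACA box rows and triangles for scaRNA rows. The call in orange (Gm25117) lies at 6.29, the 11 calls in blue lie below -2.5, and the lowest 2 are rows at 0 counts in astrocyte EVs, whose fitted values depend on the prior count.

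Snora16a, the most abundant H/ACA snoRNA by mean share, had the lowest log2 fold change of the 12 most abundant H/ACA rows. It lies inside the noncoding host Snhg12, within an exon of at least 1 annotated transcript, which may be a transcript that keeps an intron. It had 25, 3 and 29 counts in astrocyte EVs and 530, 250 and 461 in NSC EVs. All astrocyte EV libraries were below all NSC EV libraries, at 0.284 ± 0.283 and 7.20 ± 2.84 CPM (SD, n = 3 each). The log2 fold change was -4.73 (SE 0.80, edgeR adjusted p = 0.0181), and in NSC EVs the row took 5.05% to 11.4% of the counts of both classes against 0.175% to 1.18% in astrocyte EVs.

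The SNORA57 copies fell together, but they are not independent. Gm26132, in an intron of the sialyltransferase gene St3gal2, had 8, 9 and 7 counts in astrocyte EVs and 79, 191 and 140 in NSC EVs (log2 fold change -4.29, SE 0.59, edgeR adjusted p = 0.0156). Snora57 had 12, 8 and 2 counts against 79, 192 and 140 (log2 fold change -4.22, SE 0.85, edgeR adjusted p = 0.0255). The RNAs were 95.9% identical over 148 aligned bases, and their NSC EV counts differed by at most 1, so the rows cannot be taken as separate measurements. The host row of Gm26132 without the snoRNA did not show this split, with 323, 640 and 1813 counts in astrocyte EVs and 550, 355 and 441 in NSC EVs.

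Snora20, in an intron of the chaperonin gene Tcp1, had 2, 0 and 14 counts in astrocyte EVs and 82, 114 and 123 in NSC EVs. These were 0.0490 ± 0.0496 and 1.82 ± 0.396 CPM (SD, n = 3 each), with no overlap between EV types (log2 fold change -4.97, SE 0.73, edgeR adjusted p = 0.0156). The Tcp1 row itself was also called lower (log2 fold change -1.61, SE 0.32, edgeR adjusted p = 0.0253), but 53.8% to 81.1% of its counts in NSC EVs lay on its 2 snoRNA rows. Without these rows Tcp1 had 24, 47 and 140 counts in astrocyte EVs and 73, 28 and 34 in NSC EVs, and on the CPM scale the libraries overlapped.

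A pair of rows outside annotated genes had no count in astrocyte EVs. Gm25125, a SNORA42 copy (chr9:85472734-85472869, plus strand), had 17, 11 and 48 counts in NSC EVs, which put it at least 35.5-fold lower in astrocyte EVs, taking 3 counts over the group as the limit (edgeR adjusted p = 0.0252, and 0.0511 without astrocyte EV replicate 3). Gm25379, a SNORA65 copy (chr8:57549775-57549888, plus strand), had 10, 14 and 12 counts there, which put it at least 16.8-fold lower in astrocyte EVs (edgeR adjusted p = 0.0206, and 0.0513 without NSC EV replicate 2). These were low rows, and their 0 counts limit the level to below the bound rather than showing that the RNA was absent. Both rows passed the low-count filter only through NSC EVs, the EV type in which they were high. Their adjusted p-values are therefore not free of that selection. The same limit applies to Snora20, the SNORA57 rows and, described below, Gm22519, Gm23442 and Scarna13. These were under the filter's cut in every astrocyte EV library. It also applies to Gm25117, which was under the cut in every NSC EV library.

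The other H/ACA calls were smaller. Snora74a (U19), in the noncoding host Snhg4, had 17, 23 and 15 counts in astrocyte EVs and 62, 125 and 133 in NSC EVs (log2 fold change -2.70, SE 0.58, edgeR adjusted p = 0.0302, and 0.0565 without NSC EV replicate 2). Gm22519, a SNORA81 copy outside annotated genes, had 2, 8 and 4 against 27, 33 and 78 (log2 fold change -3.61, SE 0.74, edgeR adjusted p = 0.0268, and 0.0548 without astrocyte EV replicate 3). Its 98.9% identical relative Snora81, inside the translation factor gene Eif4a2, overlapped between EV types with 20, 16 and 103 against 38, 46 and 88 counts (edgeR adjusted p = 0.243). How the authors assigned reads between such copies is not stated. Gm23442, a SNORA38 copy in Prrc2a, had 1, 9 and 7 against 34, 18 and 26 counts (log2 fold change -2.60, SE 0.67, edgeR adjusted p = 0.0473). This call was lost whichever library was left out (edgeR adjusted p = 0.0737 to 0.122).

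Gm25117, a SNORA48 copy in an intron of the histone chaperone gene Nap1l1, was the only member that edgeR called higher. It had 170, 49 and 490 counts in astrocyte EVs and 0, 6 and 0 in NSC EVs, so all its NSC EV counts came from replicate 2. The levels were 2.77 ± 1.75 and 0.0318 ± 0.0550 CPM (SD, n = 3 each), and the log2 fold change was 6.29 (SE 1.09, edgeR adjusted p = 0.0193). Its host row rose as well, with 681, 683 and 1530 counts against 75, 110 and 63 (log2 fold change 3.18, SE 0.35, edgeR adjusted p = 0.0126). With the snoRNA row taken off, Nap1l1 kept 7.37 to 12.2 CPM in astrocyte EVs and 1.14 to 1.65 CPM in NSC EVs, which did not overlap.

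Further rows were above in all astrocyte EV libraries without passing the test. Snora73b had 60, 119 and 125 counts against 14, 18 and 43 (log2 fold change 1.68, SE 0.54, edgeR adjusted p = 0.0844). Snora41, in the elongation factor gene Eef1b2, had 26, 26 and 28 against 8, 4 and 4 (2.11, SE 0.63, edgeR adjusted p = 0.0701). The scaRNA Gm25492, a SCARNA20 copy, had 14, 13 and 33 against 5, 1 and 6 (1.85, SE 0.68, edgeR adjusted p = 0.116). Gm24455, a SNORA18 copy in Taf1d, lay on the opposite side with 37, 39 and 11 counts against 121, 118 and 123, again without passing (log2 fold change -2.03, edgeR adjusted p = 0.106).

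**Figure D3:**
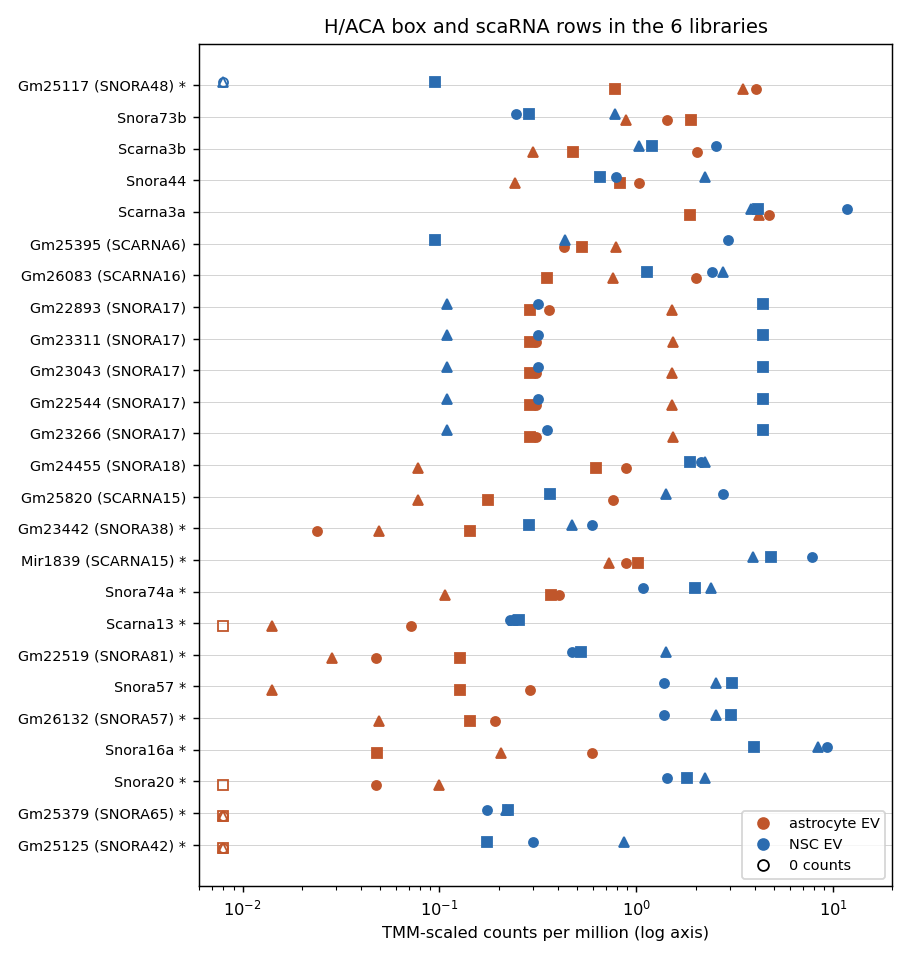
TMM-scaled CPM (log axis) of the 25 named rows in each library, ordered by fold change, with circles, squares and triangles for replicates 1, 2 and 3, open symbols at the left edge for 0 counts and stars for an edgeR adjusted p under 0.05. Snora16a, Snora20 and the SNORA57 rows lie far to the right in NSC EVs, Gm25117 lies to the right in astrocyte EVs, and the SNORA17 rows are high in 1 library of each type.

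The most abundant SNORA17 copies had nearly the same counts. The family held 203 of the 509 rows, and 5 of the 12 most abundant distinct H/ACA rows were SNORA17 copies. Gm23266, for example, had 13, 18 and 216 counts in astrocyte EVs and 20, 277 and 6 in NSC EVs. The other 4 had counts within 2 of these in every library, and Gm23043 had the same counts as Gm23319. They lay on different chromosomes except for 1 pair and were 64.7% to 97.8% identical over their length. High counts came from astrocyte EV replicate 3 and NSC EV replicate 2, the groups overlapped, and none passed the test (log2 fold changes -1.15 to -1.11, edgeR adjusted p = 0.564 to 0.576). Without NSC EV replicate 2 their log2 fold changes were 1.68 to 1.81, so 1 library set their direction.

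The most abundant member was a scaRNA. Scarna3a, in an intron of Cop1 (listed as Rfwd2), held 5.23% to 14.3% of the counts of both classes. It had 198, 117 and 591 counts in astrocyte EVs and 670, 262 and 212 in NSC EVs, and the groups overlapped (log2 fold change -0.87, SE 0.54, edgeR adjusted p = 0.320). Its relative Scarna3b (85.7% identical) had 85, 30 and 42 against 145, 76 and 57 counts (-0.81, edgeR adjusted p = 0.50). SCARNA16 (Gm26083), with 84, 22 and 107 against 138, 71 and 153 counts, did not pass either (-1.04, edgeR adjusted p = 0.312). SCARNA6 (Gm25395), a scaRNA of mixed C/D and H/ACA structure, was high in NSC EV replicate 1 alone, with 18, 33 and 111 against 166, 6 and 24 counts (-0.95, edgeR adjusted p = 0.553).

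The scaRNA calls were SCARNA15 at the Mir1839 locus and Scarna13. SCARNA15 had 37, 64 and 102 counts in astrocyte EVs and 445, 306 and 215 in NSC EVs, at 0.877 ± 0.150 and 5.52 ± 2.03 CPM (SD, n = 3 each). It did not overlap between EV types and fell by 2.66 on the log2 scale (SE 0.38, edgeR adjusted p = 0.0156). Scarna13, a tandem H/ACA scaRNA in Snhg10, was low in every library, with 3, 0 and 2 counts against 13, 16 and 13 (log2 fold change -3.32, SE 0.87, edgeR adjusted p = 0.0498). Its call held in 4 of 14 alternatives and was lost with median-ratio size factors (edgeR adjusted p = 0.0503), with no filter (0.0691), with a minimum of 10 counts (0.0516) and whichever library was left out (0.0637 to 0.134). The relative Gm25820, which the table lists under both SCARNA15 and SCARNA4 with equal counts, had 32, 11 and 11 against 157, 23 and 78 counts and did not pass (-2.25, edgeR adjusted p = 0.157).

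Much of the scaRNA signal lay on annotated mature miRNAs. Between 98.1% and 100% of the counts of the SCARNA15 row were matched by counts on the mature rows of miR-1839-5p and miR-1839-3p inside it. The miR-1839-5p row had 37, 64 and 102 against 433, 305 and 211 counts and was itself called lower (log2 fold change -2.63, edgeR adjusted p = 0.0156). Mature arms of miR-1843a made up 68.4% to 91.8% of Scarna3b, and arms of miR-1843b made up 17.6% to 53.5% of Scarna3a. Snora36b was made up fully of miR-664-5p in all 6 libraries, with 21, 11 and 39 against 11, 4 and 3 counts (1.58, edgeR adjusted p = 0.167). In all, 8 distinct members held an annotated mature miRNA row.

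Within SNORA58 the EV types differed in which arm was counted while the whole row did not pass the test. The row, in an intron of Alkbh1, had 35, 37 and 46 counts in astrocyte EVs and 47, 80 and 35 in NSC EVs (log2 fold change -0.67, SE 0.47, edgeR adjusted p = 0.384). Its miR-3068-5p had 20, 26 and 28 counts against 5, 6 and 3 (log2 fold change 2.14, edgeR adjusted p = 0.0540), above in all astrocyte EV libraries. Its miR-3068-3p had 0 counts in every astrocyte EV library and 28, 32 and 23 in NSC EVs, at least 38.8-fold lower in astrocyte EVs against 3 counts over the group (edgeR adjusted p = 0.0156). That row passed the low-count filter only through NSC EVs. The 5p arm thus took 100% of the arm counts in astrocyte EVs and 15.2%, 15.8% and 11.5% in the NSC EV libraries (exact two-sided permutation test, p = 0.1, adjusted p = 0.3 over 3 arm pairs). The 5p share was not as distinct for the Scarna3 rows, where miR-1843b gave 69.6% ± 20.6 and 51.2% ± 5.86 and miR-1843a gave 79.5% ± 11.1 and 79.4% ± 8.56 (SD, n = 3 each; exact two-sided permutation test, p = 0.3 and p = 1).

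**Figure D4:**
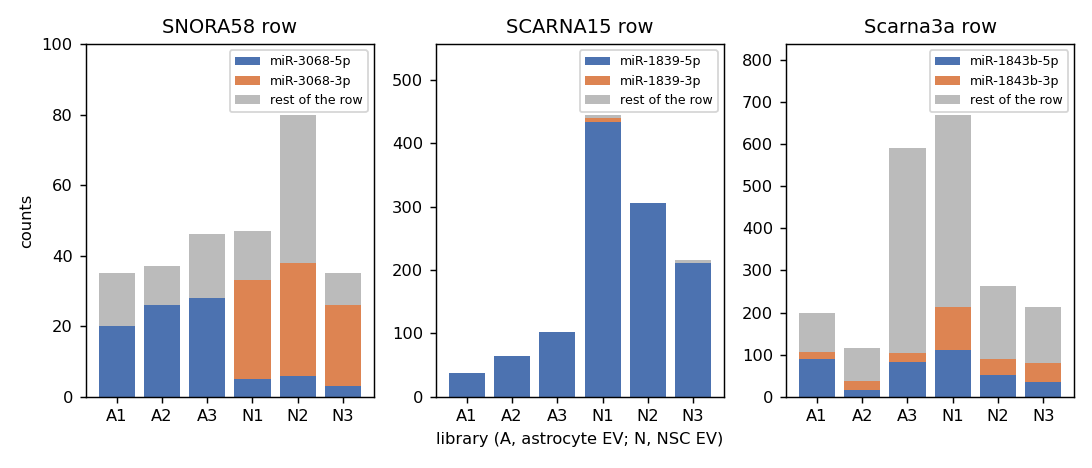
Counts of 3 member rows in each library, split into the mature miRNA arms inside them and the rest of the row, with A for astrocyte EV and N for NSC EV replicates 1 to 3. In the SNORA58 row the miR-3068-3p part is missing from A1 to A3 and is the larger arm in N1 to N3, and the SCARNA15 row is almost wholly miR-1839-5p.

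RNAs cut from the same host were not present in fixed proportion. Snhg12 holds Snora16a, Snora44, Snora61 and the C/D box RNA Snord99, and these 4 rows took 83.2% to 98.9% of its counts. Snord99 had 881, 519 and 1624 counts in astrocyte EVs and 79, 60 and 65 in NSC EVs (log2 fold change 3.54, SE 0.44, edgeR adjusted p = 0.0153), opposite to Snora16a. Snora44 (43, 52 and 34 against 45, 41 and 124 counts, log2 fold change -0.84, edgeR adjusted p = 0.435) and Snora61 (29, 9 and 36 against 27, 21 and 26, -0.27, edgeR adjusted p = 0.804) overlapped. The host row did not pass (989, 597 and 2070 against 689, 381 and 694 counts, 0.64, edgeR adjusted p = 0.369), and as a sum of rows that moved in opposite directions it carried no separate information on the host.

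Within-library ratios do not depend on the scaling. The log2 ratio of Snora16a to Snora61 (0.5 added to each count) averaged -0.65 ± 0.68 in astrocyte EV and 3.98 ± 0.38 in NSC EV libraries (SD, n = 3 each, exact two-sided permutation test, p = 0.1, adjusted p = 0.2 over 6 pairs). Snora16a to Snora44 gave -1.63 ± 1.99 and 2.68 ± 0.83 (exact permutation p = 0.1, adjusted p = 0.2), whereas Snora44 to Snora61 overlapped (exact permutation p = 0.7). The U17 copies in Snhg3, 96.6% identical, differed as well: Snora73b to Snora73a gave 2.37 ± 0.57 in astrocyte EV and 0.35 ± 0.37 in NSC EV libraries (exact permutation p = 0.1, adjusted p = 0.2), with Snora73a at 18, 17 and 20 against 13, 16 and 25 counts. In Eif4a2 the log2 ratio of Snora81 to Gm26447, a SNORA63 copy (25, 35 and 17 against 6, 8 and 9 counts), was 0.38 ± 1.93 and 2.75 ± 0.41 (exact permutation p = 0.2, adjusted p = 0.3). In Pabpc4 the pair of SNORA55 copies had adjusted p = 0.36 by the same exact permutation test.

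**Figure D5:**
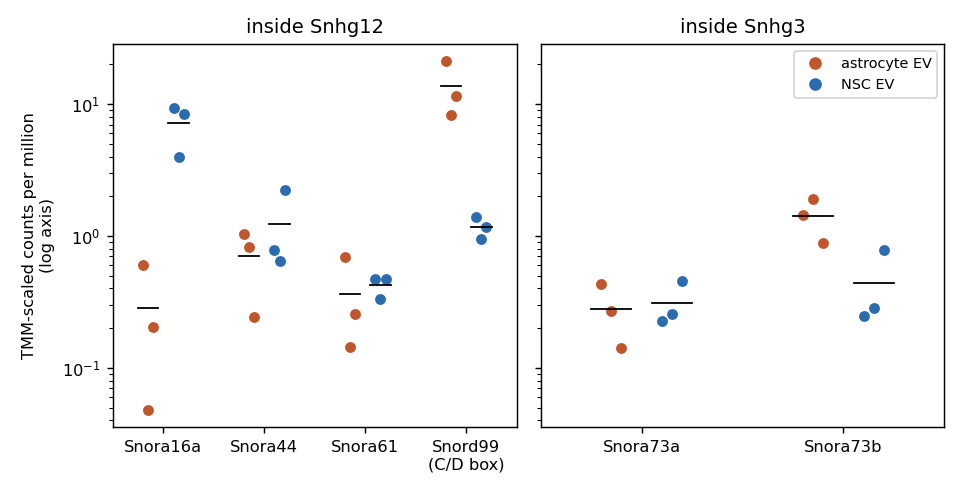
TMM-scaled CPM (log axis) of small RNAs inside Snhg12 and Snhg3, with points for libraries and lines for group means. Snora16a is lower and Snord99 higher in all astrocyte EV libraries, Snora44, Snora61 and Snora73a overlap, and Snora73b is higher in all astrocyte EV libraries.

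Calls were spread over intronic, exonic and intergenic members. Of the distinct rows 107 lay in introns (37 tested, 1 higher and 4 lower) and 131 outside GENCODE genes on the same strand (15 tested, 4 lower). Another 37 lay within an exon of at least 1 annotated transcript, which may keep an intron (22 tested, 3 lower). Snora57 is among the 4 lower rows outside GENCODE genes, although a noncoding row of the count table, 5730408K05Rik, spans it. Of 54 host rows tested, 3 were called higher and 6 lower, where 5.54% and 4.24% of all tested rows were. The higher hosts were Nap1l1, Odc1 (polyamine synthesis; log2 fold change 3.01, edgeR adjusted p = 0.0180) and Gtf2a1 (a general transcription factor; 1.24, edgeR adjusted p = 0.0444). The members in Odc1 and Gtf2a1 did not go with their hosts. Gm22748, a SNORA42 copy in Odc1, overlapped with 37, 10 and 26 against 20, 14 and 26 counts (0.17, edgeR adjusted p = 0.900). The SNORA79 row in Gtf2a1 had 6, 0 and 1 against 22, 23 and 11 counts, opposite to its host. The lower hosts were 2900076A07Rik, Snhg4, 5730408K05Rik and Tcp1, which span SCARNA15, Snora74a, Snora57 and Snora20. Dancr (-2.22, edgeR adjusted p = 0.0199) and the kinesin gene Kif13a (-1.98, edgeR adjusted p = 0.0180) were lower as well. Several of these lower host rows were largely counts of their members. Snora57 made up 100% of 5730408K05Rik in every library, Snora74a made up 72.7% to 100% of Snhg4, and SCARNA15 made up 52.0% to 68.3% of 2900076A07Rik. In Dancr the member Snora26 made up 63.3% to 79.3% of the NSC EV counts, whereas in Kif13a the member made up at most 0.304%. Without SCARNA15, 2900076A07Rik kept 0.478 to 0.942 CPM in astrocyte EVs and 2.70 to 3.63 CPM in NSC EVs. The rest of Snhg4 (2, 0 and 4 against 5, 23 and 50 counts) and of Dancr (5, 9 and 25 against 18, 12 and 22) was low. On the CPM scale neither overlapped. The rest of Tcp1 overlapped, and 5730408K05Rik had none. These remainders were not tested. Leaving out astrocyte EV replicate 1, astrocyte EV replicate 2 or NSC EV replicate 3 left 0 host rows called (smallest adjusted p = 0.0541, 0.0607 and 0.0525). Over the whole table those fits called 0 rows, 0 rows, and 4 rows higher and 14 lower.

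The listed RNP and assembly genes showed no edgeR call, but they were few. The list of 15 also held the stand-alone pseudouridine synthases Pus1 and Pus7 and the RNA Terc. Of these 15 genes 14 were tested, and edgeR called 0 (2 at an unadjusted p under 0.05, both lower), where 9.78% of all tested rows were called. At that share, 0 of 14 says little about the genes. DESeq2 called 2 lower, Nop10 and Naf1. Nop10, a core protein of the particle, had 2, 14 and 5 counts in astrocyte EVs and 162, 16 and 23 in NSC EVs (log2 fold change -3.55, SE 1.10, edgeR adjusted p = 0.0768), with replicate 1 far above the other NSC EV libraries. The assembly factor Naf1 had 31, 49 and 206 against 131, 398 and 103 counts (-1.80, edgeR adjusted p = 0.0723). Dkc1 (-0.11, SE 0.39), Nhp2 (0.01, SE 0.51), Gar1 (0.22, SE 0.52) and Wrap53 (-0.38, SE 0.52) had values within 1 SE of 0, with edgeR adjusted p from 0.671 to 0.991. Terc, the telomerase RNA, which carries an H/ACA domain, had 8, 8 and 1 against 5, 1 and 5 counts and was not tested. Reads in these gene rows can come from introns or fragments, so they do not measure intact mRNA.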

How the data were processed

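Small RNA was sequenced from 3 astrocyte EV and 3 NSC EV libraries. The authors deposited raw counts, whole reads per annotated row, without normalization. According to the submitters' processing notes the tools were Bowtie, Bowtie2, cutadapt, DESeq, FastQC, SAMtools and bedtools (versions not given) and the build was mm10. Handling of multiply mapped reads and of strand is not stated. The paper gives an Illumina kit and a HiSeq for the libraries, and the series record a CleanTag kit and a NextSeq. Deposited tables of the authors' own comparison (group means, fold changes and p-values) were not used. All columns were matched to a library and no row had a blank identifier.

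The 788 hairpin rows, which repeat mature miRNA reads, were left out, and 61161 rows remained. All of them entered an edgeR fit (version 4.0.16, R 4.3.3) with TMM, the filterByExpr filter, a non-robust quasi-likelihood test and group as the sole term, with Benjamini-Hochberg adjustment over all tested rows and calls at an adjusted p under 0.05. Shares were tested by an exact two-sided permutation test over libraries. A fold against a group at 0 is a bound against 3 counts over the group. DESeq2 1.42.0 served as a second tool. Scripts ran in Python 3.11.15 with pandas 2.3.3, numpy 2.4.6, scipy 1.17.1, Biopython 1.88 and matplotlib 3.10.9. Sequences and positions of rows were matched to GENCODE vM21, and mature miRNA sequences came from RefSeq. Replicates differed by a chi-square per degree of freedom of 91.7 to 424, above counting noise, so no pair was counted as 1 library, which does not show separate cultures.

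The members, gene lists and tests were chosen with earlier results of these data known. The named rows were the 12 H/ACA and 6 scaRNA rows of largest mean share of both classes' counts, the 5 called rows of largest fold in each direction, Dkc1, Nop10, Nhp2, Gar1, Wrap53 and Terc, host genes of named rows, and rows with equal counts. All other rows, and Snord99, were named after seeing their values. Alternatives tried were DESeq2, median-ratio size factors, no TMM, no filter, a minimum of 10 counts in 3 libraries, identical rows taken once, no RefSeq rows, a replicate block, leaving out each library, and other denominators for the shares. Leaving out counts of mature miRNA rows was added after seeing the data.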

Additional observations from a re-analysis of the deposited data

How the results depend on the processing

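Calls among members depended on the libraries and settings. Counts of members called higher and lower in astrocyte EVs were 3 and 20 with DESeq2, 2 and 17 without a filter, 1 and 22 without TMM, and 1 and 5 with the replicate block. With a minimum of 10 counts 2 were called higher. Without TMM the median log2 fold change of all tested rows moved from -0.04 to -0.54, so members lay lower with the rest. Leaving out 1 library gave 0 to 4 higher and 0 to 10 lower members, 0 to 3 higher and 0 to 6 lower host rows. Over all tested rows the same fits gave 0 to 2786 higher and 0 to 1572 lower. Host rows called higher were 5 with DESeq2, 0 without RefSeq rows and 1 with the replicate block, which left 1 lower. RNP genes called lower were 2 with DESeq2, 2 without a filter and 1 without TMM. Direction turned without NSC EV replicate 2 for the 5 SNORA17 rows, whose log2 fold changes ran over the libraries left out from -2.43 to 1.68 (Gm23266), -2.31 to 1.81 (Gm22893), -2.42 to 1.79 (Gm22544), -2.42 to 1.79 (Gm23311) and -2.42 to 1.79 (Gm23043). SCARNA6 turned without NSC EV replicate 1 (range -1.49 to 1.17) and with the block (0.16). The causes were not tested. The shares kept their direction under every alternative run, with ratios of 2.65 to 4.20 for H/ACA box and 2.45 to 4.55 for scaRNA rows. None of these alternatives scaled the shares by TMM, so the ranges do not cover that scaling. The main fit did not pair samples by replicate number. Deviations from the group means had correlations of -0.048, -0.004 and -0.118 between same-numbered libraries. With so few libraries these values cannot exclude that same-numbered samples were handled together.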

Other observations

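Values of 2 members outside the tested set are given here without a test. Gm24163, a SNORA71 copy outside annotated genes (chr13:75905147-75905278, plus strand), had 35, 44 and 17 counts in astrocyte EVs and 0 in each NSC EV library, at least 22.8-fold higher in astrocyte EVs against 3 counts over the group. It missed the low-count filter, which works on CPM before TMM scaling, because the 17 counts of astrocyte EV replicate 3 fell short. It was chosen after its values were seen. Snora34, listed under SNORA2, overlapped between EV types, with 0, 14 and 7 counts in astrocyte EVs and 8, 2 and 0 in NSC EVs, and all of these but the counts of NSC EV replicate 2 lay on miR-1291.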
